A study of Mus musculus with 6 samples.

Results

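The interferon-induced GTPases of mouse haematopoietic stem cells were examined in pools sorted with and without the chemokine receptor CCR2. The genes were chosen by symbol in the array's probe annotation, with the CCR2 comparison of these arrays already known: Igtp, Irgm1, Irgm2, Iigp1 and Tgtp1 of the immunity-related GTPase (IRG) family, and Gbp2, Gbp3, Gbp5, Gbp7 and Gbp9 of the guanylate-binding protein (GBP) family. Of these 10 genes, 8 had a probe set of their own, out of 22180 genes with one. Tgtp1 is listed only on probe sets shared with Tgtp2, and Gbp2 only on one shared with Gbp2b, so neither has a value here. The material came from C57BL/6J mice with no treatment or age in the labels. Each of the 6 arrays held 1 pool of sorted CCR2+ or CCR2- stem cells from the bone marrow of 20 mice, with 3 pools of each kind. Pooling hides the spread between animals, and the labels name no other surface marker of the sort. Values are log2 after RMA, a method that corrects background and equalises the arrays, and every difference below is the CCR2-positive mean minus the CCR2-negative mean, ± its limma standard error (SE).

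Interferon-gamma switches on both families, in part through the transcription factor IRF1. IRG proteins fall into regulators, which sit on the cell's own membranes and hold the others inactive, and effectors, which load onto the vacuoles of intracellular parasites and break them. GBPs are larger, dynamin-like GTPases that coat such vacuoles and bacteria and feed inflammasome signalling. In stem cells the family is known above all for Irgm1: mice without it have stem cells that cycle excessively and engraft poorly.

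As a check of the sort, Ccr2 itself had log2 values of 6.81, 7.10 and 6.18 in CCR2-positive replicates 1, 2 and 3 and 5.63, 6.26 and 5.83 in the CCR2-negative ones. CCR2-positive replicate 3 thus lay under CCR2-negative replicate 2. The stem cell marker genes Procr, Mecom and Hlf had log2 values of 6.93 to 7.19, 6.55 to 7.48 and 7.47 to 8.03 in CCR2-positive and 7.21 to 7.49, 7.54 to 8.20 and 8.21 to 8.64 in CCR2-negative pools. With no other cell type on these arrays, such levels do not test the labelled one. Arrays correlated at r = 0.966 to 0.983 within groups and 0.960 to 0.977 between them, across probe sets, which are not independent. In the limma fit 0 of 22180 genes passed an adjusted p of 0.05, which is 0% of all genes, against 2716 at an unadjusted p under 0.05. No gene described below therefore passed.

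Interferon acts on these genes through short motifs upstream of them, so the upstream sequences are printed first for the genes the results turn on. The windows are the 250 bases before the gene start (RefSeq, GRCm38.p6), in the direction of transcription. Capitals mark 2 motifs: the core of the interferon-stimulated response element (ISRE), GAAA, any 2 bases and GAAA on either strand, which IRF proteins bind, and the gamma-activated site (GAS), TTC, any 3 bases and GAA, which reads the same on both strands. Matches may overlap. Igtp (chr11:58199306-58199555, plus strand) and Irgm2 (chr11:58214727-58214976, plus strand) are neighbours, Irgm1 (chr11:48871421-48871670, minus strand) lies elsewhere on the chromosome, and Gbp3 (chr3:142559794-142560043, plus strand) stands for the GBPs.
Igtp: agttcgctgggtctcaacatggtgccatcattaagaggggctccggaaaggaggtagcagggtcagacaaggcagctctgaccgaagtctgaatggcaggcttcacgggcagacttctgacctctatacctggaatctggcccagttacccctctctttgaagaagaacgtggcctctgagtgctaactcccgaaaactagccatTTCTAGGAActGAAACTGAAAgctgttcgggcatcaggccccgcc
Irgm2: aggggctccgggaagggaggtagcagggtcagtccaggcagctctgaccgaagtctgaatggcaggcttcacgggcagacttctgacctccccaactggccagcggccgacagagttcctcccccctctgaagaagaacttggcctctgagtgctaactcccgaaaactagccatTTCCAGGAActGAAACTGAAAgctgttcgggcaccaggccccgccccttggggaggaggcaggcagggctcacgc
Irgm1: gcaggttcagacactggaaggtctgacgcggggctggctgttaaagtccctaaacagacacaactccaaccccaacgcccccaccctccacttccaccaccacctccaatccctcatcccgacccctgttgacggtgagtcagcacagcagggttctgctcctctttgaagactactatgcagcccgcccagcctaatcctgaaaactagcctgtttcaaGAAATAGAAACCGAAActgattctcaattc
Gbp3: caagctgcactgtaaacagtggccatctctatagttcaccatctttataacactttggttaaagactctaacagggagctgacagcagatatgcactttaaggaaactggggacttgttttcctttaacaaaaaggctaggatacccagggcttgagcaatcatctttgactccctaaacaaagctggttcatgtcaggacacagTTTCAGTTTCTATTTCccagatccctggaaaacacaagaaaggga

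In Igtp and Irgm2 a GAS is followed after a gap of 2 bases by an ISRE core, at positions -45 to -25 in Igtp and -75 to -55 in Irgm2. The windows of these neighbours share an unbroken run of 55 bases, so their matches are not separate observations. Irgm1 has 2 overlapping ISRE cores close to its start, at -30 to -21 and -24 to -15, and no GAS by these letters in its window. Gbp3 likewise has 2 overlapping ISRE cores, at -45 to -36 and -39 to -30, on the opposite strand; a second RefSeq start of Gbp3 has neither motif in its window.

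The other members with an entry carry these motifs too, Tgtp1 in the same joined form, and are shown here as 40 bases around the ISRE core nearest the start. Gm12250, an IRG gene next to Igtp that is no member, is added because its values resemble those of its neighbours. The stretches lie at chr11:48992304-48992343 (minus strand) for Tgtp1, chr3:142620584-142620623 for Gbp2, chr3:142496749-142496788 for Gbp5, chr3:142530263-142530302 for Gbp7 and chr11:58183777-58183816 for Gm12250, all on the plus strand but the first.
Tgtp1: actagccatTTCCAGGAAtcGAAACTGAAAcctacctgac
Gbp2: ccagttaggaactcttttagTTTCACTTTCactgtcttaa
Gbp5: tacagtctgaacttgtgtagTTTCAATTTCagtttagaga
Gbp7: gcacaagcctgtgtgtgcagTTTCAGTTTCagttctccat
Gm12250: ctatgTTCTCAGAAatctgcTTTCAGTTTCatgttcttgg

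All 8 members with a window held an ISRE core and 5 held a GAS, where 2.98% and 7.02% of the 32851 RefSeq windows of this length did. Gbp9 had no window, and Iigp1 lies on chromosome 18, whose windows were left out for the family genes. A search for the joined form seen in Igtp and Irgm2, a GAS, any 2 bases and an ISRE core on either strand, was made after their sequences had been read. It found 5 windows (0.0152% of all): those of Igtp, Irgm2 and Tgtp1 and of the related genes Tgtp2 and Gm12185. Tgtp2 and Gm12185 share an unbroken run of 114 bases, and each shares 27 with Tgtp1. Irgm2 and Tgtp1 share 20, so the 5 windows are not separate observations. Gbp7 has 2 GAS matches and Gbp5 has 2, each apart from its ISRE core. A match is a description of the letters, not of binding.

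**Figure D1:**
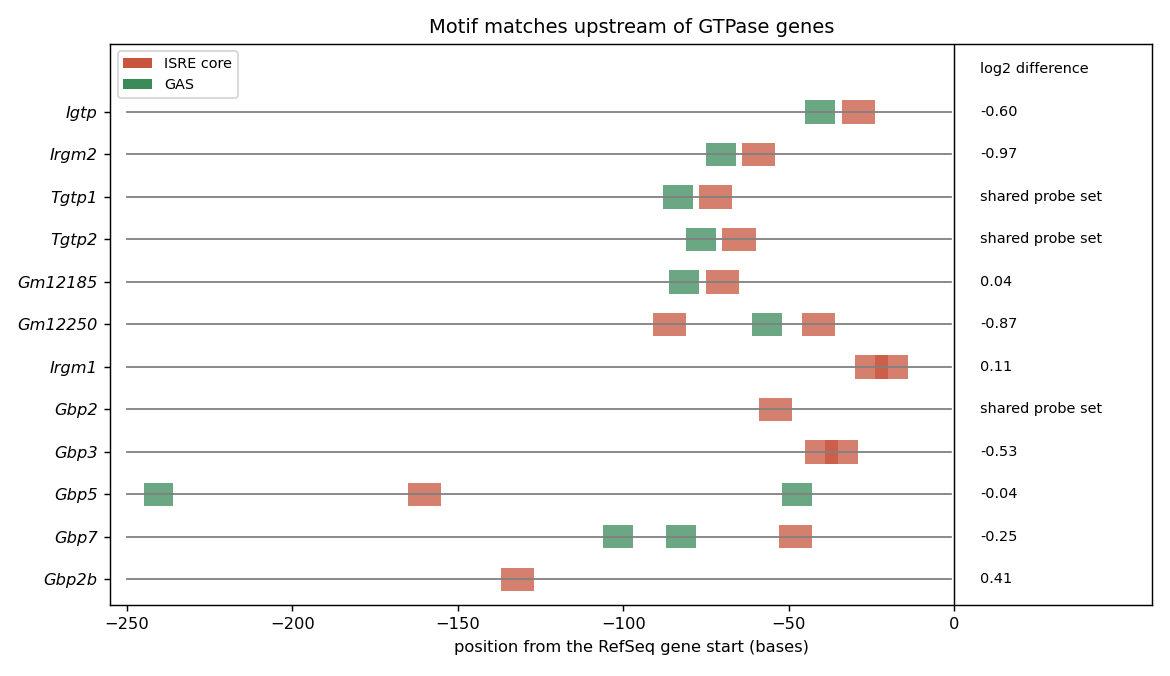
Positions of ISRE core (red) and GAS (green) matches in the 250 bases before the RefSeq gene start, for 12 genes of the IRG and GBP families; the horizontal axis is the distance from the start in bases, and the log2 difference between CCR2-positive and CCR2-negative pools stands at the right. The GAS and ISRE core lie side by side in the top 5 genes, of which Igtp and Irgm2 differed by -0.60 and -0.97 and Gm12185 by 0.04. The mean of Gm12185 lies under the 25th percentile of probe sets, where a difference may not be measurable.

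Among the regulators, Irgm2 and Igtp were lower in the CCR2-positive pools and Irgm1 was not. Irgm2 had log2 values of 8.02, 7.55 and 7.62 in CCR2-negative replicates 1, 2 and 3, and 7.18, 6.59 and 6.51 in the CCR2-positive ones. The groups did not overlap, and CCR2-positive replicate 1 was the nearest to the CCR2-negative pools. The means were 6.76 ± 0.36 (SD, n = 3) and 7.73 ± 0.25 (SD, n = 3), a difference of -0.97 ± 0.20 (SE) or 1.95-fold. In bulk pools, fewer cells with a transcript and less of it per cell cannot be told apart. Because the members were chosen with this comparison known, these differences are descriptions, with no test.

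Igtp, also called Irgm3, had log2 values of 7.87, 8.27 and 7.81 in the CCR2-negative and 7.41, 7.49 and 7.24 in the CCR2-positive replicates 1, 2 and 3. Its groups did not overlap either, with CCR2-negative replicate 2 the highest pool of all. The difference was -0.60 ± 0.14 (SE), or 1.52-fold. It was -0.46 without CCR2-negative replicate 2.

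Irgm1, the regulator tied to stem cell maintenance, had log2 values of 6.92, 6.74 and 6.92 in the CCR2-negative and 6.91, 7.13 and 6.86 in the CCR2-positive replicates. The groups overlapped almost wholly, and only CCR2-positive replicate 2 lay above every CCR2-negative pool. Its difference was 0.11 ± 0.12 (SE).

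**Figure D2:**
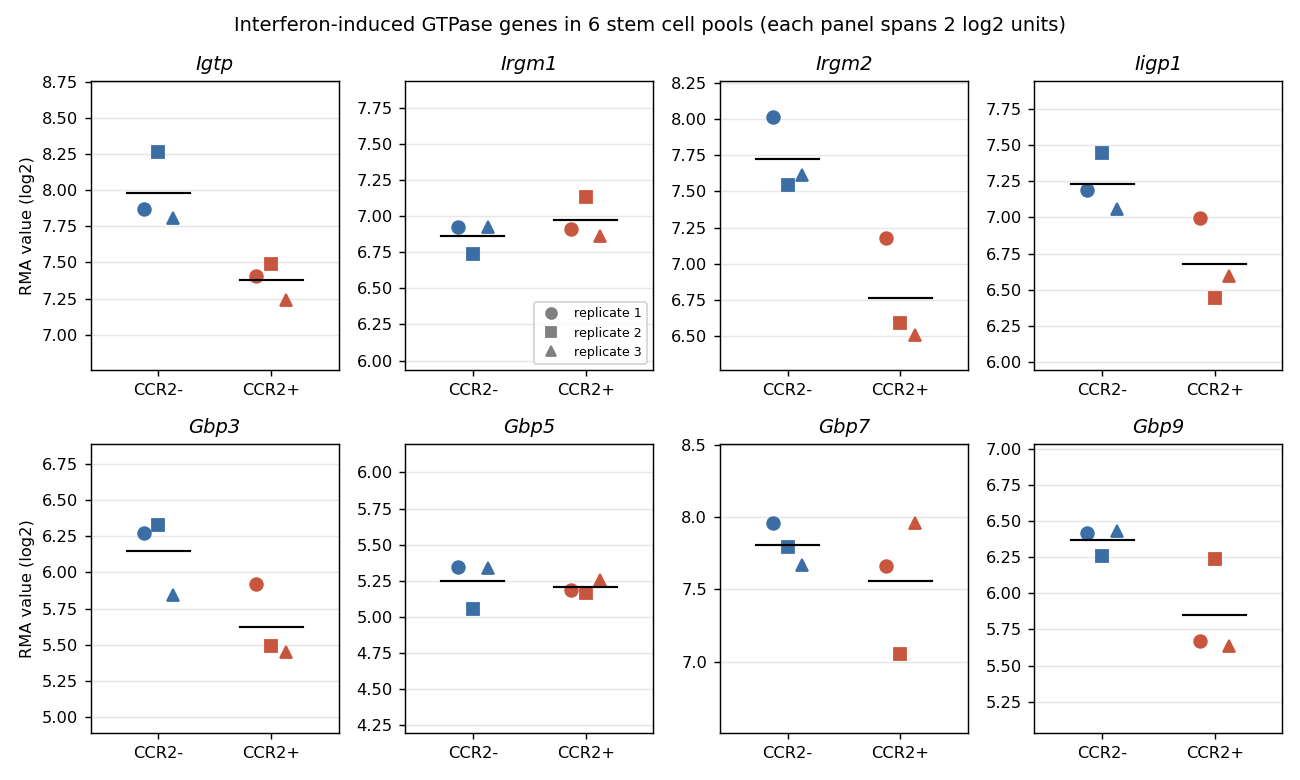
RMA values (log2, vertical axis, 2 log2 units in every panel) of the 8 GTPase genes with a probe set of their own, in CCR2-negative (blue) and CCR2-positive (red) pools; each marker is 1 pool, its shape the replicate number, and the line the group mean. Igtp, Irgm2, Iigp1 and Gbp9 show no overlap between the groups, while Irgm1 and Gbp5 have nearly the same mean in both.

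A ratio within an array does not change when all log2 values of that array are shifted by the same amount. A quantile normalization, which treats bright and dim probe sets differently, can change it. When it was repeated, the differences were -0.90 for Irgm2, -0.53 for Igtp and 0.17 for Irgm1. The ratios restate the unequal differences of the regulators pool by pool and are no separate evidence. The log2 ratio of Irgm2 over Irgm1 was 1.09, 0.81 and 0.69 in the CCR2-negative replicates and 0.26, -0.54 and -0.36 in the CCR2-positive ones, a shift of -1.07 between the means. That of Igtp over Irgm1 was 0.94, 1.53 and 0.88 against 0.49, 0.36 and 0.38, a shift of -0.71. Neither ratio overlapped between the groups, but Irgm2 and Igtp already had no overlap on their own. The share of other gene pairs without overlap was not computed. Only the change of a ratio can be read, since probe sets differ in brightness.

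**Figure D3:**
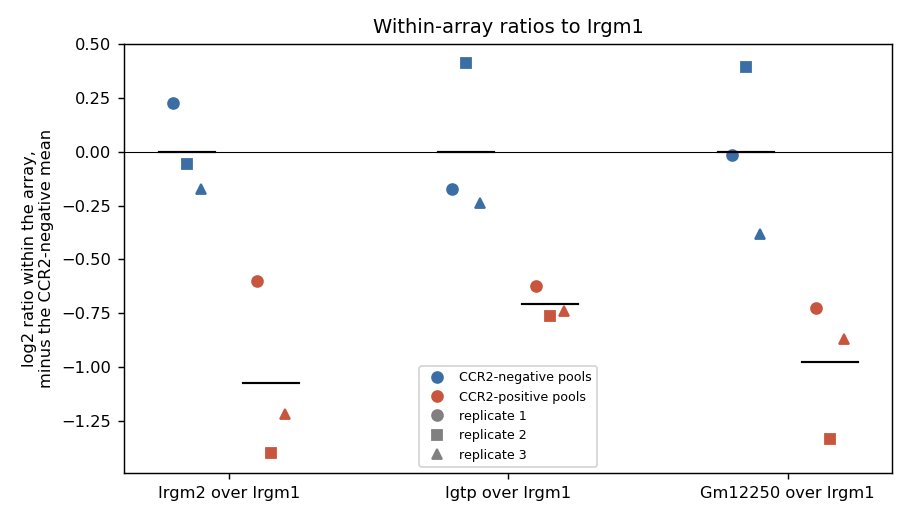
Log2 ratios of Irgm2, Igtp and Gm12250 over Irgm1 within each array, set to 0 at the CCR2-negative mean (vertical axis); markers are pools, shapes are replicate numbers, and lines are group means. The CCR2-positive means lie at -1.07, -0.71 and -0.98, below all CCR2-negative pools.

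Of the effectors, Iigp1 could be measured. It encodes Irga6, an IRG that coats parasite vacuoles. Its log2 values were 7.19, 7.44 and 7.06 in the CCR2-negative and 6.99, 6.44 and 6.60 in the CCR2-positive replicates. The groups did not overlap, but CCR2-positive replicate 1 lay just under the lowest CCR2-negative pool. The difference was -0.55 ± 0.17 (SE), or 1.47-fold.

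The 4 measured GBPs ranged from a difference of -0.53 to one of -0.04. Gbp3 had log2 values of 6.27, 6.33 and 5.85 in the CCR2-negative and 5.92, 5.49 and 5.45 in the CCR2-positive replicates, a difference of -0.53 ± 0.17 (SE). Its groups overlapped by 1 pair of pools, CCR2-positive replicate 1 lying above CCR2-negative replicate 3. Gbp9 had 6.42, 6.26 and 6.43 against 5.67, 6.24 and 5.64, a difference of -0.52 ± 0.17 (SE). Here replicates 1 and 3 of the CCR2-positive group lay far down, while replicate 2 was level with the lowest CCR2-negative pool.

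Gbp7, which supports the oxidative killing of bacteria, had log2 values of 7.96, 7.80 and 7.67 in the CCR2-negative and 7.66, 7.05 and 7.96 in the CCR2-positive replicates. Its difference of -0.25 ± 0.21 (SE) rested on CCR2-positive replicate 2 and was 0.0035 without that pool. Gbp5, which promotes inflammasome assembly, had 5.34, 5.05 and 5.34 against 5.19, 5.17 and 5.26, and a difference of -0.04 ± 0.11 (SE). All its CCR2-positive pools lay inside the CCR2-negative range, and its sign depended on the pools used (0.0075 with CCR2-negative replicate 1 left out, 0.0061 with replicate 3 left out).

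Over the 8 measured members, 7 had a difference below 0, where 44% of all genes did, and the median was -0.52 against 0.03 over all genes. In 4 of them, Igtp, Irgm2, Iigp1 and Gbp9, every CCR2-positive pool lay under every CCR2-negative pool, which held for 7.88% of all genes. A difference of at least 0.5 toward lower values was present in 5 of the 8 and in 2.71% of all genes. These counts come from the comparison that chose the genes and are given only to place them. Without CCR2-negative replicate 2 and CCR2-positive replicate 3, the pools whose Ccr2 values overlap, 7 of 8 were still below 0 and the median was -0.40.

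The members did not follow each other from pool to pool inside a group. CCR2-negative replicate 2 had the highest values of its group for Igtp, Iigp1 and Gbp3 but the lowest for Irgm1, Irgm2, Gbp5 and Gbp9. CCR2-positive replicate 2 had the lowest values of its group for Iigp1, Gbp5 and Gbp7 but the highest for Igtp, Irgm1 and Gbp9. With each gene's group means taken out, the 28 pairs of members had correlations from -0.97 to 0.92 over the 6 pools, with a median of 0.06. Iigp1 and Gbp3 were among the pairs that varied together (r = 0.88), and Igtp and Gbp5 varied oppositely (r = -0.97). With 3 pools a group and arrays shared by all genes, these values describe the pools and nothing more.

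By RefSeq gene order (GRCm38.p6) the members lie in 5 runs of neighbouring family genes. Some runs are broken by a gene of neither list. In the run of Gm12250, Igtp and Irgm2 all 3 genes had lower CCR2-positive values. Gm12250, which encodes the effector Irgb10, had log2 values of 6.94, 7.17 and 6.58 in CCR2-negative and 6.22, 5.83 and 6.03 in CCR2-positive pools, a difference of -0.87 ± 0.17 (SE; limma adjusted p = 0.177). The groups of Gm12250 did not overlap. In the run that starts with Irgm1, Gm5431 differed by 0.10 ± 0.17 (SE), Gm12185 by 0.04 ± 0.14 and 9930111J21Rik2 by -0.25 ± 0.20, but all 3 had means under the 25th percentile of probe sets, 4.34, where a difference may not be measurable. Gm5431 was below 0 without CCR2-negative replicate 1 (-0.0512), and Gm12185 was at -0.0832 without CCR2-negative replicate 3 and at -0.0014 without CCR2-positive replicate 1. 9930111J21Rik2 was at -0.0474 without CCR2-negative replicate 3 and at -0.46 without replicate 2 of that group.

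In the run with Iigp1, F830016B08Rik had log2 values of 6.33, 6.15 and 5.69 in CCR2-negative and 5.40, 5.35 and 5.60 in CCR2-positive pools. These groups did not overlap either, and the difference was -0.61 ± 0.17 (SE; limma adjusted p = 0.241). In the same run, Gm4951 differed by -0.29 ± 0.30 (SE), with CCR2-positive replicate 3 the highest pool of all at 7.27 and replicate 2 the lowest at 5.87. The direction of Gm4951 thus rested on which pools were used, and it was 0.0070 without CCR2-positive replicate 2 and -0.70 without replicate 3.

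Next to Gbp3, Gbp2b had log2 values of 4.45, 4.54 and 4.50 in CCR2-negative and 4.75, 4.93 and 5.03 in CCR2-positive pools, so that here every CCR2-positive pool was the higher (0.41 ± 0.11, SE; limma adjusted p = 0.234). That arrangement of pools held for 10.8% of all genes. Gbp2b was dim, with a mean of 4.70, where the 25th percentile of probe sets was 4.34 and the median 5.54. In the run with Gbp9, Gbp10 differed by -0.63 ± 0.22 (SE; limma adjusted p = 0.318), with values of 7.51, 6.62 and 7.03 against 6.70, 6.25 and 6.31 that overlapped by 1 pair of pools. Gbp10 was at -0.40 without CCR2-negative replicate 1. Gbp8, in the same run, differed by -0.31 ± 0.15 (SE) and by -0.18 without CCR2-positive replicate 2. Gbp4, Gbp6 and Gbp11 had means under the 25th percentile and differences of -0.11, 0.07 and 0.04, and each changed sign when 1 pool was left out: 0.0075 for Gbp4 without CCR2-negative replicate 1, -0.0149 for Gbp6 and -0.106 for Gbp11 without CCR2-positive replicate 1. Gbp11 was not placed in a run. GBP genes are close copies of each other, and probes that also pick up a copy cannot be told from the table.

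**Figure D4:**
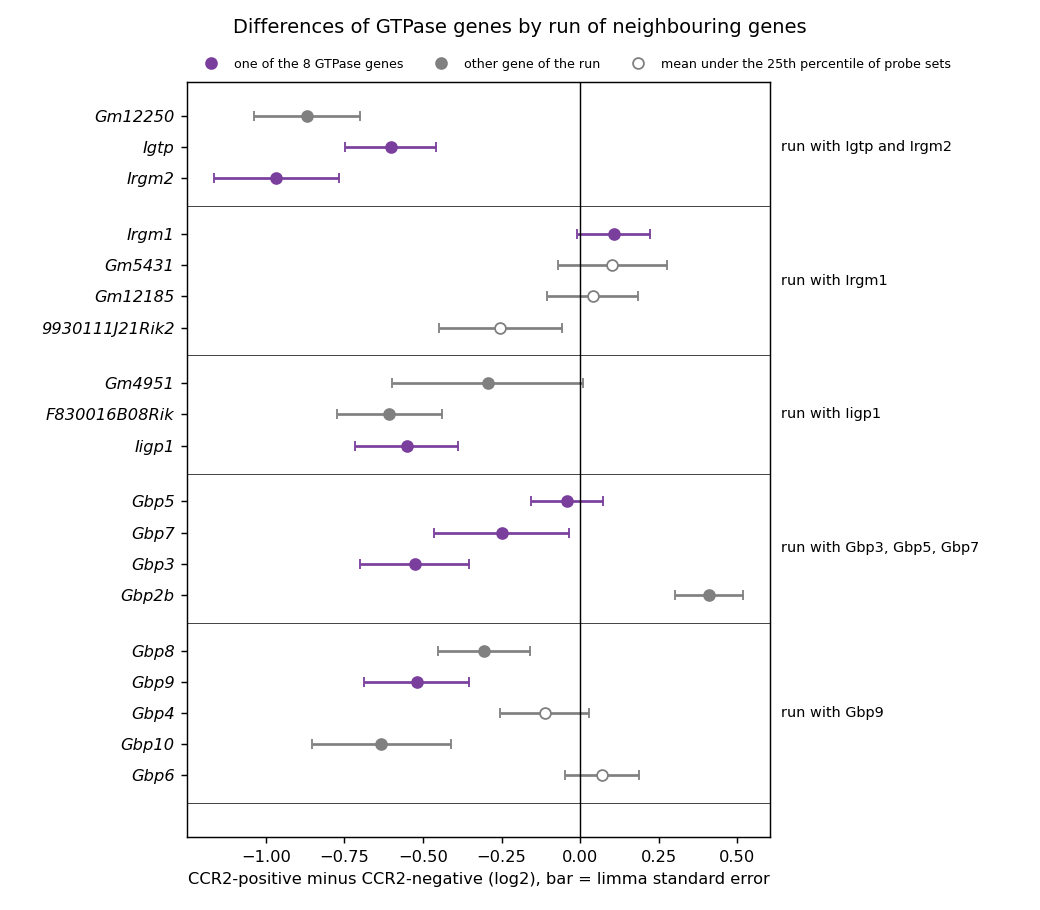
Difference between CCR2-positive and CCR2-negative pools (log2, horizontal axis) with its limma standard error for IRG and GBP genes, ordered by run of neighbouring genes; purple points are the 8 genes chosen, grey points other genes of the run, and open points have means under the 25th percentile. The run of Gm12250, Igtp and Irgm2 lies between -0.97 and -0.60, while Irgm1 and Gbp2b lie above 0.

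The IRG-like genes Irgq and Irgc1, which interferon is not known to induce, differed by 0.12 ± 0.11 (SE) and -0.02 ± 0.11 (SE). The interferon-induced Irgm1 and Gbp5 were as near to 0, at 0.11 and -0.04. Irgc1 had a mean of 4.54, close to the 25th percentile of probe sets, 4.34. The sign of Irgc1 changed under 5 of 14 alternatives, array weights among them. Of the Mx genes, dynamin-like GTPases that block viruses, Mx2 differed by -0.35 ± 0.28 (SE). Its value of 6.03 in CCR2-negative replicate 2 stood apart from 4.82 to 5.15 in the other 5 pools, and without that pool the difference was 0.02. Mx1 differed by -0.06 ± 0.11 (SE), and by 0.0087 without CCR2-positive replicate 2. Its mean of 4.15 lay under the 25th percentile, where a difference may not be measurable.

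Genes of the signalling that induces the GTPases lay on both sides of 0. Of 12 measured genes of interferon-gamma signalling 0 passed over all genes, and 2 were lower and 1 higher at an unadjusted p under 0.05, where 6.61% of all genes were lower and 5.63% higher. The list's median was -0.08. Without overlap of the pools 2 of the 12 were lower and 1 higher, where 7.88% and 10.8% of all genes were. Irf2, an antagonist of IRF1 at many promoters, had log2 values of 8.71, 8.13 and 8.38 in CCR2-negative and 7.82, 7.96 and 7.73 in CCR2-positive pools (-0.57 ± 0.15, SE; limma adjusted p = 0.235), without overlap. Irf1, the activator of the same sites, differed by -0.25 ± 0.10 (SE; limma adjusted p = 0.383), and its values of 7.10 to 7.21 and 6.83 to 7.03 did not overlap. The receptor chain Ifngr1 was on the other side, at 8.70, 8.64 and 8.89 against 8.97, 9.46 and 9.01 (0.41 ± 0.15, SE; limma adjusted p = 0.343), and its difference was 0.25 without CCR2-positive replicate 2. The kinase gene Jak2 differed by -0.25 ± 0.14 (SE), and by -0.12 without CCR2-positive replicate 3.

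For type I interferon signalling 0 of 10 genes passed, and the median was -0.14. At an unadjusted p under 0.05, 2 were lower, where 6.61% of all genes were. Lower values without overlap of the pools were present in 3 of the 10 and in 7.88% of all genes. Ifnar1, a chain of the type I receptor, had log2 values of 8.34 to 8.44 in CCR2-negative and 7.82 to 8.04 in CCR2-positive pools (-0.43 ± 0.11, SE; limma adjusted p = 0.202). Isg15, a ubiquitin-like protein gene, differed by -0.44 ± 0.15 (SE) and Irf9, a transcription factor that acts at the ISRE, by -0.28 ± 0.13 (SE), both without overlap of the pools. Irf9 was at -0.18 when either CCR2-negative replicate 2 or CCR2-positive replicate 1 was left out, and Isg15 at -0.19 without both pools whose Ccr2 values overlap. Ifnb1 differed by -0.21 ± 0.12 (SE), and by -0.13 without CCR2-positive replicate 3, with a mean under the 25th percentile.

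Other targets of interferon-gamma were 18, of which 0 passed, with a median of -0.03. At an unadjusted p under 0.05, 7 were lower and 1 higher, where 6.61% and 5.63% of all genes were. The immunoproteasome subunits Psmb9 and Psmb10 differed by -0.49 ± 0.10 (SE; limma adjusted p = 0.181) and -0.40 ± 0.12 (SE). Psmb9 had log2 values of 10.51 to 10.70 in CCR2-negative and 10.03 to 10.14 in CCR2-positive pools. Cd274, which encodes PD-L1, differed by -0.40 ± 0.12 (SE), and H2-Aa, an MHC class II chain, by -0.61 ± 0.19 (SE). These 4 had no overlap between the groups and were picked as those with the smallest p. Lower values without overlap were present in 5 of the 18 and in 7.88% of all genes, higher ones in 1 of the 18 and in 10.8%.

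Genes that act together with the GTPases were also read. The autophagy conjugation machinery, which regulators and effectors need for their placement, had 0 of 12 genes past the threshold and a median of -0.12. At an unadjusted p under 0.05, 2 were lower and 1 higher, where 6.61% and 5.63% of all genes were. Gabarap, one of the ubiquitin-like proteins that the machinery attaches to membranes, had log2 values of 9.96, 9.62 and 9.69 in CCR2-negative and 10.15, 10.21 and 10.10 in CCR2-positive pools (0.40 ± 0.12, SE; limma adjusted p = 0.259). Its relatives Map1lc3b and Gabarapl2 differed by -0.57 ± 0.23 (SE) and -0.35 ± 0.16 (SE), and the autophagy receptor Sqstm1 by -0.33 ± 0.11 (SE). Map1lc3b was at -0.36 without CCR2-positive replicate 2, and Gabarapl2 at -0.18 without CCR2-positive replicate 1.

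The inflammasome genes that GBPs act upon had 0 of 8 past the threshold and a median of -0.58. At an unadjusted p under 0.05, 5 were lower and 1 higher, where 6.61% and 5.63% of all genes were. Lower values without overlap of the pools were present in 4 of the 8 and in 7.88% of all genes. Higher values without overlap were present in 1 of the 8, Nlrp3 (0.29 ± 0.12, SE), and in 10.8% of all genes. Il18, whose product the inflammasome matures, had log2 values of 6.76, 7.47 and 6.04 in CCR2-negative and 5.43, 5.56 and 5.15 in CCR2-positive pools (-1.38 ± 0.31, SE; limma adjusted p = 0.183). Gsdmd, the pore-forming gasdermin, differed by -0.61 ± 0.14 (SE; limma adjusted p = 0.188), Casp1 by -0.71 ± 0.19 (SE) and the DNA sensor Aim2 by -0.56 ± 0.18 (SE), none with overlap between the groups. The list is short, and its Il18 values moved from -1.73 to -0.91 over the alternatives.

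The mean of the 8 members, each centred on its own mean, ran 0.29, 0.22 and 0.12 in the CCR2-negative and -0.09, -0.26 and -0.27 in the CCR2-positive replicates. The genes closest to this course over the 6 pools were Sesn1, a stress-induced gene (r = 0.999), Rnf113a1 (r = 0.997), the adiponectin receptor Adipor2 (r = 0.997), the sphingolipid transporter Spns2 (r = 0.994) and Olfr127 (r = 0.993). Their differences were -0.60 ± 0.12, -0.19 ± 0.09, -0.36 ± 0.10, -0.70 ± 0.14 and -0.34 ± 0.11 (SE). The values of Olfr127, 3.39 to 3.89, lay under the 25th percentile of probe sets, 4.34, where a difference may not be measurable. With 6 pools, 420 genes had r above 0.9, so a high r singles out no gene.

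Several lists of cell type markers also differed between the groups. Of the stem cell markers 10 of 10 were lower in CCR2-positive pools, where 44% of all genes were. Their list means were 7.07 to 7.34 against 7.59 to 7.94. Erythroid markers were higher in 11 of 11 cases (8.95 to 9.47 against 8.25 to 8.76), where 12422 of all 22180 genes were higher. Monocyte and macrophage markers were higher in 9 of 11 cases (6.05 to 6.28 against 5.76 to 5.96). Neutrophil markers were higher in 12 of 12, but their list means overlapped between the groups (5.50 to 6.14 against 5.19 to 5.54). The smallest neutrophil difference was 0.008. Higher values without overlap of the pools were present in 3 of the 12 neutrophil, 9 of the 11 erythroid and 5 of the 11 monocyte and macrophage markers. This held for 10.8% of all genes. Lower values without overlap were present in 7 of the 10 stem cell markers and in 7.88% of all genes. RMA values have no 0; 2 monocyte and 2 neutrophil markers, and no stem or erythroid marker, had means under the 25th percentile. The part of these cell types in the GTPase differences was not tested. Markers of T cells (5.39 to 5.74 against 5.54 to 5.58), NK cells (5.30 to 5.38 against 5.27 to 5.31) and dendritic cells (6.08 to 6.12 against 6.07 to 6.10) overlapped between the groups, as did those of B cells (5.13 to 5.34 against 5.07 to 5.15) and of endothelial and stromal cells (5.52 to 5.72 against 5.68 to 5.77).

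**Figure D5:**
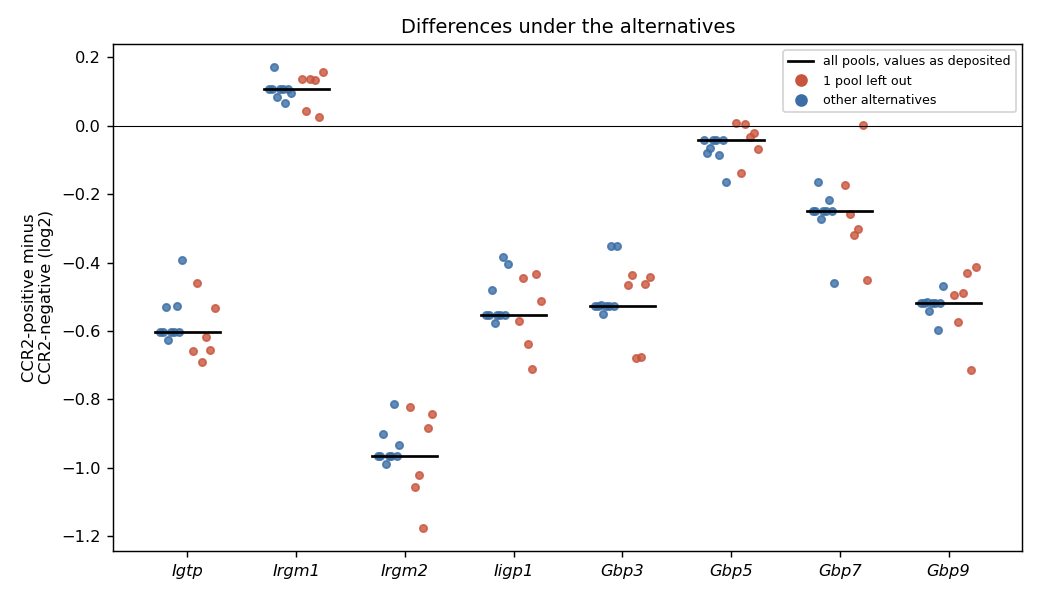
Difference of each GTPase gene (log2, vertical axis) with all pools (black line), with 1 pool left out (red) and under the other alternatives (blue). Irgm2 stays between -1.18 and -0.81, Irgm1 between 0.03 and 0.17, and Gbp5 and Gbp7 reach 0 when 1 pool is left out.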

How the data were processed

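The authors deposited 1 table of log2 values, 41345 probe sets by 6 arrays; per the submitters' processing notes they come from RMA (version and settings: not given in the sources used here). Per the labels' protocols, 5 ng of total RNA per pool was amplified. Equalising the arrays removes differences in total signal. Signal over background is unknown, and the number of arrays limits the precision (median SE 0.127).

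Genes were named through the platform annotation. The 1814 probe sets listed to several genes were left unnamed, and of a gene's probe sets the one with the highest mean was used. The groups were compared over 22180 genes with limma 3.58.1 in R 4.3.3 (lmFit, eBayes, no covariate), with Benjamini-Hochberg adjustment over all genes; the fit was tested on simulated data.

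The members and lists were chosen with earlier results of these data known. Named genes are all members, all other measured IRG, GBP and Mx genes, up to 4 genes with the smallest p of each other pathway list, the 5 closest profiles, and up to the first 3 markers of a cell type list. Nlrp3 was added as the inflammasome gene that was higher without overlap. Alternatives were filters on dim probe sets, median centring, a repeated quantile normalization, a replicate block, other variance settings, array weights, the mean of probe sets, and pools left out. Promoter windows are RefSeq's, build GRCm38.p6, and motifs were matched exactly on both strands.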

Additional observations from a re-analysis of the deposited data

How the results depend on the processing

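Over 15 alternatives Irgm2, Igtp, Iigp1, Gbp3 and Gbp9 kept a difference below 0 and Irgm1 one above 0. With 1 pool left out the members' median was -0.56 to -0.44, 6 to 7 of the 8 were below 0, and 4 to 5 were lower without overlap, where 11.4% to 13.7% of all genes were. Array weights gave a median of -0.37, and the cause was not tested. Leaving out both pools whose Ccr2 values overlap, chosen after seeing the data, gave -0.39 for Igtp and -0.16 for Gbp5, and 6 members lower without overlap, where 18.5% of all genes were, because fewer pools are compared.

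The count of genes past an adjusted p of 0.05 stayed 0 except without CCR2-positive replicate 1, so that leaving out 1 pool gave 0 to 2; these were Mcpt8 (2.70 ± 0.19, SE; limma adjusted p = 0.0222) and Gca (-1.55 ± 0.13, SE; limma adjusted p = 0.0290), named after their values were seen. With all pools, 318 genes had an adjusted p under 0.2 and 2716 an unadjusted p under 0.05. With the replicate block the members' median was -0.52, 0 genes passed and 2935 had an unadjusted p under 0.05. The SE of Irgm2 was 0.11 with the block and 0.20 without it, and the lowest limma adjusted p over all genes 0.062 and 0.177. The labels do not say whether the replicate numbers pair the pools. Same-numbered pools deviated from their group means with r = 0.03, 0.09 and 0.04 across genes, and differently numbered ones with -0.10 to 0.07. Such low values do not decide it. The filter at the median left out Gbp5, and 7 members remained.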
